A study of Mus musculus with 12 samples.

Results

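The 8 genes of classical non-homologous end joining (NHEJ) examined here, Xrcc6, Xrcc5, Prkdc, Dclre1c, Xrcc4, Lig4, Nhej1 and Trp53bp1, were chosen by name from the 45792 genes in the quantification of cultured mouse neural stem cells (NSCs), and all 8 passed the filter on low counts that left 15706 genes for testing. RNA was sequenced after depletion of ribosomal RNA from 12 primary NSC cultures grown in serum-free medium with EGF and FGF, 4 in each of 3 groups. The WT group (cultures 9 to 12) and the Ncf1-/- group (cultures 1 to 4) were NSCs from the neonatal brain, labelled as untreated (for the Ncf1-/- cultures, the study's methods state vehicle), with each culture of a group from a different pup. The Igfbp2-treated Ncf1-/- group (cultures 5 to 8) received mouse recombinant Igfbp2 48 h after plating, at 100 ng/ml by the sample labels (the methods of the study give a lower dose), and RNA was prepared 48 h later. Ncf1 encodes a cytosolic subunit of the NADPH oxidase complex, and the mice lacked it in every cell rather than in NSCs alone. WT cells were not given Igfbp2, so cultures with and without Igfbp2 were compared in Ncf1-/- cells only.

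NHEJ rejoins the ends of a DNA double-strand break directly and can act throughout the cell cycle, whereas homologous recombination copies a sister chromatid and acts after replication. A ring of the Ku subunits binds the ends and recruits the DNA-dependent protein kinase, ends that cannot be joined are trimmed by the nuclease Artemis, and a complex of XRCC4, XLF and DNA ligase IV seals them. In the developing brain this pathway is known for its part in the survival of newborn neurons, since loss of Xrcc4 or Lig4 in mice is followed by widespread neuronal death.

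The stretches of 250 bases before the annotated start of 4 of these genes, from RefSeq promoter sequences of GRCm38.p6, are shown because they stand next to genes that rose (Xrcc5, Nhej1) or fell (Trp53bp1) in Ncf1-/- NSCs or fell under Igfbp2 (Dclre1c), and because they overlap no annotated exon. Capitals mark the letters CCAAT (the NF-Y box) and GGGCGG (a GC box bound by Sp1 proteins), or their reverse complements.
Xrcc5, chr1:72307171-72307420, plus strand: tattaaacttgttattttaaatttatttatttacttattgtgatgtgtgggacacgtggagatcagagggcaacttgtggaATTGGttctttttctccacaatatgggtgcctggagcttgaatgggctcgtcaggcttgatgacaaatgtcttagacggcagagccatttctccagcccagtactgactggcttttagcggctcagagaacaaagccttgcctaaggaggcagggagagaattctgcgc
Nhej1, chr1:75125227-75125476, minus strand: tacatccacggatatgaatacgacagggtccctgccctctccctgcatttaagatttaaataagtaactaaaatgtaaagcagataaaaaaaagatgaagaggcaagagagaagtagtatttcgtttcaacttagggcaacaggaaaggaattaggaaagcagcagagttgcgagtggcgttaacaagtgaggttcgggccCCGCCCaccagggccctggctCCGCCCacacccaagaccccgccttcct
Dclre1c, chr2:3423881-3424130, plus strand: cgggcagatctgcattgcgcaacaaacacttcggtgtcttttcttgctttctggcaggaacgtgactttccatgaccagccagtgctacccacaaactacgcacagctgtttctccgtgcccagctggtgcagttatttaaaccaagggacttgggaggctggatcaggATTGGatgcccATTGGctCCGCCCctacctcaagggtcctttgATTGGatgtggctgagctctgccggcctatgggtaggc
Trp53bp1, chr2:121271408-121271657, minus strand: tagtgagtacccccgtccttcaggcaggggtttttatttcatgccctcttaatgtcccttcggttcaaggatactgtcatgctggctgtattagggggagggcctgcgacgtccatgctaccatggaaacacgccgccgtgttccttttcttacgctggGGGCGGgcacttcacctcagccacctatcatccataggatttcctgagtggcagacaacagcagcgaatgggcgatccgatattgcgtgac

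Dclre1c held 3 CCAAT boxes and 1 GC box in this window, Nhej1 held 2 GC boxes, and Xrcc5 and Trp53bp1 held 1 marked box each. Windows were found for 7 of the 8 genes, with 2 windows for Lig4 and 1 for each other gene. GGGCGG was in 6 of these 8 windows, all but that of Xrcc5 and 1 of Lig4, and in 32.7% of 32851 windows of the same length genome-wide, searched on both strands. CCAAT was in the windows of 2 genes (Dclre1c and Xrcc5) and in 33.8% of all windows. Of the letters of cell cycle promoters, the E2F-type TTTCCCGC was in the window of Xrcc6 and in 0.9% of all windows, the E2F-type TTTGGCGC was in none of the 7 genes and 0.4% of all windows, and the cell cycle homology element TTTGAA was in none of the 7 and 16% of all windows. GCGCATGC, the core of the NRF1 site, was in the Lig4 window that lacked GGGCGG and in 2.3% of all windows, and its matches on both strands overlap because it is part of a palindrome there.

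The libraries held between 18201622 and 34086554 estimated counts. Ncf1 itself had 2 to 7 counts in WT, 2 to 4 in Ncf1-/- and 1 in each Igfbp2-treated library, so it could not serve as a check of the genotype. All 10 neural stem cell markers were expressed, and they summed to 2642 to 8346 CPM (counts relative to the scaled library size) in WT and 8113 to 8887 CPM in Ncf1-/- libraries. Oligodendrocyte markers (12 genes) summed to 3805 to 13390 CPM in WT against 2143 to 2314 CPM in Ncf1-/- and 2163 to 2267 CPM in Igfbp2-treated libraries, with Mog at or under 3 counts in each Ncf1-/- library. Neuronal markers (7 genes) summed to 597.0 to 770.1, 483 to 547 and 432 to 460 CPM in the same order, and astrocyte markers (8 genes) to 6724 to 12590, 3072 to 3626 and 3372 to 4517 CPM. Of the 8 microglial markers, 5 (Cx3cr1, Tmem119, Aif1, C1qa and Ptprc) were at or under 3 counts in each library. The part of these other cell types in the results below was not tested, and in bulk RNA fewer cells of a type and less RNA per cell cannot be told apart. WT culture 11 stood apart from its group with the highest stem cell sum (8346 CPM, against 2642 to 3933 CPM) and the lowest oligodendrocyte sum (3805 CPM, against 8521 to 13390 CPM). The Y-linked genes summed to 105 to 116 CPM in the Ncf1-/- libraries, to 7.80 to 9.18 CPM in the Igfbp2-treated libraries, to 107 to 118 CPM in WT cultures 9 to 11 and to 6.46 CPM in WT culture 12. Igfbp2 treatment and sex-linked expression therefore cannot be told apart, although the study describes treated and vehicle cultures as pairs from the same pups.

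Counts of these genes differed between Ncf1-/- and WT NSCs in both directions. Against WT, 7 of the 8 were called at an adjusted p-value under 0.05 by edgeR's quasi-likelihood test, where 57.2% of all genes tested were called. Xrcc6, Xrcc5 and Nhej1 were higher in Ncf1-/- NSCs (28.9% of all genes were called higher), and Prkdc, Xrcc4, Lig4 and Trp53bp1 were lower (28.2% called lower). This split of 3 higher and 4 lower was 4 higher and 1 lower when counts were scaled by library totals, with Dclre1c gained and Prkdc, Xrcc4 and Lig4 lost. That scaling moved the median log2 fold change over all genes from 0.02 to 0.19. Relative to the median, Prkdc, Xrcc4, Lig4 and Dclre1c were at −0.54, −0.34, −0.41 and 0.16 with TMM factors and at −0.54, −0.33, −0.41 and 0.16 with library totals. In tests on TPM, RSEM's length-corrected abundance, fewer were called: Nhej1 and Trp53bp1 in limma with either pseudocount, and Nhej1 in the study's own test. Calls over all genes fell too, from 8978 in edgeR to 6659 and 6541 in limma with pseudocounts of 1 and 0.1 and to 4328 in the study's test. Some folds were as large there as on counts, with Xrcc4 at −0.31 and −0.37 in limma and −0.36 in the study's test (−0.32 in edgeR) and Trp53bp1 at −0.57 in the study's test (adjusted p = 0.0808, against −0.55 in edgeR). The fitted level in Ncf1-/- relative to WT NSCs ran from 0.685 (Trp53bp1) to 1.58 (Nhej1). The share called is high in this comparison for genes in general, and the 8 genes had a median log2 fold change of −0.07 beside 0.02 over all genes.

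**Figure D1:**
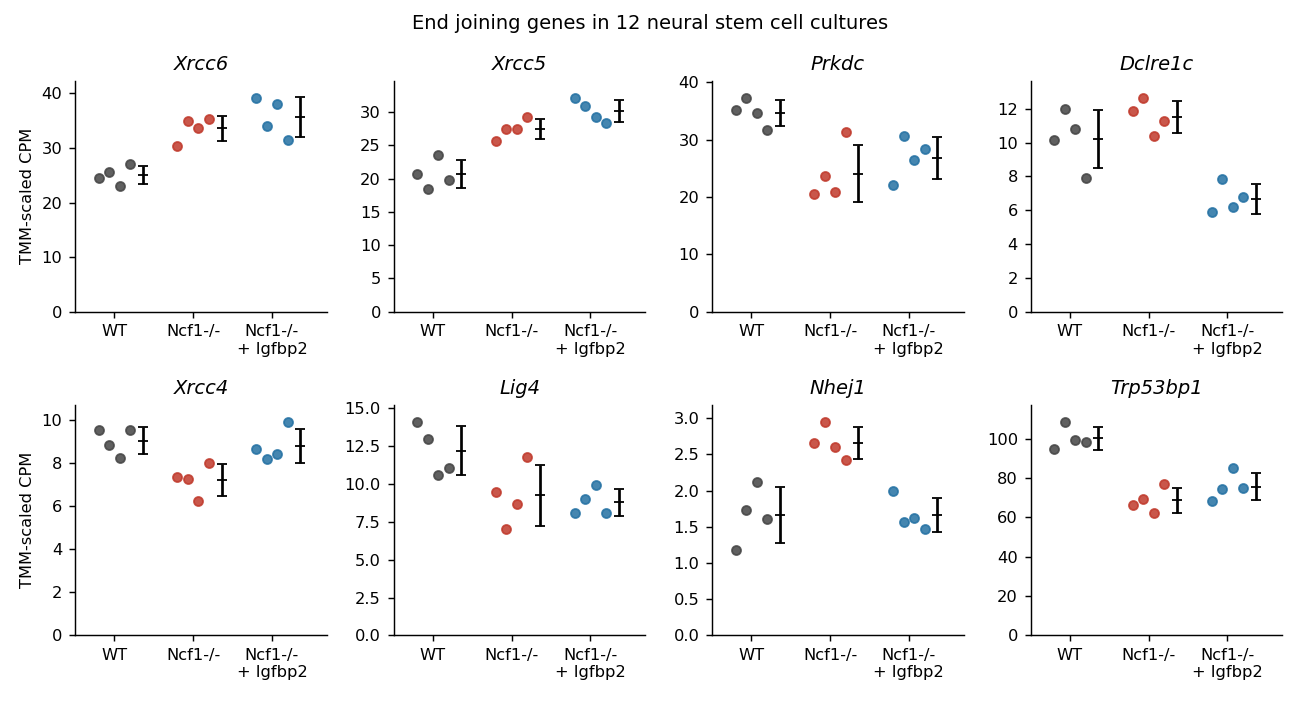
TMM-scaled CPM of the 8 genes (vertical axes, starting at 0) in the 12 cultures of the 3 groups. Each point is 1 culture, in the order of culture number, and the bar beside it gives the mean ± SD of the 4 cultures. Xrcc6 and Xrcc5 lay above WT in all 8 Ncf1-/- cultures, and Dclre1c lay lowest in the 4 Igfbp2-treated cultures.

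The genes of the Ku ring rose together. Xrcc6 (ENSMUSG00000022471, chr15:81987835-82040085, plus strand of GRCm38) encodes Ku70. It was at 24.6, 25.5, 23.1 and 27.1 CPM in WT cultures 9 to 12 and at 30.4, 35.0, 33.6 and 35.3 CPM in Ncf1-/- cultures 1 to 4. Every Ncf1-/- value lay above every WT value. The fitted difference was 0.43 ± 0.09 on the log2 scale (SE, edgeR adjusted p = 0.00107). Under Igfbp2 its values were 39.2, 34.02, 38.2 and 31.5 CPM, which overlapped those of vehicle-treated Ncf1-/- cells (log2 fold change 0.09, 95% interval −0.10 to 0.28, edgeR adjusted p = 0.488).

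Xrcc5 (ENSMUSG00000026187, chr1:72307421-72394952, plus strand) encodes Ku80, the partner of Ku70. It was at 20.7, 18.5, 23.6 and 19.9 CPM in WT and 25.6, 27.4, 27.6 and 29.2 CPM in Ncf1-/- cultures, again with no overlap. The fitted difference was 0.41 ± 0.08 on the log2 scale (SE, edgeR adjusted p = 0.00112). Igfbp2-treated cultures were at 32.1, 31.0, 29.3 and 28.4 CPM and overlapped the vehicle-treated ones (log2 fold change 0.14, 95% interval −0.04 to 0.32, edgeR adjusted p = 0.245). Against WT, both genes were called higher after Igfbp2 too, with log2 fold changes of 0.51 for Xrcc6 and 0.54 for Xrcc5 (edgeR adjusted p = 0.000243 and 0.000111). In tests on the deposited TPM, neither gene was called against WT in either Ncf1-/- group. For vehicle-treated cells the differences kept their size there (0.44 to 0.49 for Xrcc6 and 0.41 to 0.46 for Xrcc5, adjusted p from 0.0532 to 0.241 over limma and the study's test). For Igfbp2-treated cells they shrank to 0.02 to 0.05 for Xrcc6 and 0.10 to 0.12 for Xrcc5 (adjusted p from 0.599 to 1.0). In limma on TPM the median over all genes was itself at −0.253 and −0.404 in this comparison, with pseudocounts of 1 and 0.1. Relative to it Xrcc6 was at 0.28 and 0.43 and Xrcc5 at 0.36 and 0.52, against 0.52 and 0.55 in edgeR.

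The balance of the Ku transcripts did not change detectably. The ratio of Xrcc5 to Xrcc6 in TPM, which corrects for transcript length, was 0.591, 0.555, 0.792 and 0.544 in WT, 0.628, 0.603, 0.625 and 0.582 in Ncf1-/- and 0.652, 0.715, 0.571 and 0.696 in Igfbp2-treated cultures. The groups overlapped throughout, and WT culture 11 held the highest ratio. Two-sided exact permutation tests of the log2 ratio gave p = 0.971 for Ncf1-/- against WT, 0.229 between the treatments and 0.514 for Igfbp2-treated against WT (0.971, 0.686 and 0.771 after adjustment over the 3 comparisons), where 0.0286 is the smallest p that 4 against 4 can give.

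Prkdc (ENSMUSG00000022672, chr16:15637866-15842235, plus strand) encodes the catalytic subunit of the DNA-dependent protein kinase, which Ku recruits. It was at 35.1, 37.2, 34.6 and 31.7 CPM in WT and 20.5, 23.7, 20.8 and 31.3 CPM in Ncf1-/- cultures. The groups did not overlap, although Ncf1-/- culture 4 came close to the lowest WT value. The fitted difference was −0.52 ± 0.14 on the log2 scale (SE, edgeR adjusted p = 0.00492). With Igfbp2 it was at 22.04, 30.6, 26.4 and 28.4 CPM, which was not called against vehicle (log2 fold change 0.16, 95% interval −0.14 to 0.45, edgeR adjusted p = 0.422). Leaving out 1 library, that difference ran from 0.05, without Igfbp2-treated culture 6, to 0.33, without Ncf1-/- culture 4 (edgeR adjusted p = 0.0519). After Igfbp2, Prkdc was lower than WT (log2 fold change −0.37, edgeR adjusted p = 0.0309). This call against WT was lost in 4 of 20 alternatives, at −0.35 without the filter, −0.34 without Igfbp2-treated culture 5, −0.36 without WT culture 9 and −0.73 in the study's test (adjusted p from 0.052 to 0.137). Scaled by library totals without TMM factors, and in limma and the study's test on TPM, Prkdc was not called between Ncf1-/- and WT, with log2 fold changes of −0.34 for library totals, −0.29 and −0.44 in limma and −0.42 in the study's test.

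Dclre1c (ENSMUSG00000026648, chr2:3424131-3464130, plus strand) encodes the nuclease Artemis, which the kinase activates. It was called lower after Igfbp2. Its values were 10.1, 11.98, 10.8 and 7.91 CPM in WT and 11.8, 12.6, 10.4 and 11.3 CPM in Ncf1-/- cultures, which overlapped (log2 fold change 0.17, 95% interval −0.12 to 0.46, edgeR adjusted p = 0.285). In Igfbp2-treated cultures it stood at 5.87, 7.87, 6.17 and 6.78 CPM, below every vehicle-treated culture and, by a small margin, below every WT culture. The lowest WT value, 7.91 CPM, was that of culture 12, the WT culture with low Y-linked expression, so the 5 cultures with low Y-linked expression held the 5 lowest values of Dclre1c. Without culture 12 the log2 fold change between Ncf1-/- and WT was 0.04 in place of 0.17. Between the treatments, Igfbp2 and sex-linked expression cannot be told apart. The fitted level after Igfbp2 was 0.578 of that with vehicle, a difference of −0.79 ± 0.14 on the log2 scale (SE, edgeR adjusted p = 0.00241), and against WT the fitted difference was −0.62 ± 0.14 (SE, edgeR adjusted p = 0.0017). The fall between the treatments was called in each of 21 alternatives, with adjusted p-values from 7.84e-06 to 0.0122.

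The 3 genes of the ligation complex did not move as a unit. Xrcc4 (ENSMUSG00000021615, chr13:89774027-90089608, minus strand) encodes the scaffold that holds the ligase. It was at 9.55, 8.85, 8.26 and 9.52 CPM in WT and 7.36, 7.26, 6.23 and 8.02 CPM in Ncf1-/- cultures. All Ncf1-/- values lay below all WT values (log2 fold change −0.32, SE 0.11, edgeR adjusted p = 0.0223). Igfbp2-treated cultures were at 8.64, 8.17, 8.42 and 9.92 CPM, all above the vehicle-treated values and overlapping WT. The difference from vehicle, a log2 fold change of 0.28 (SE 0.11), was not called (edgeR adjusted p = 0.0756). It was 0.18 without Ncf1-/- culture 3, and 0.36 and called without Ncf1-/- culture 4 (edgeR adjusted p = 0.0465). With library totals it was 0.01, which lay 0.24 above the median over all genes, against 0.25 above it with TMM factors. The difference from WT was −0.04 (95% interval −0.28 to 0.20, edgeR adjusted p = 0.771). On TPM, however, Xrcc4 was lower in Igfbp2-treated cells than in WT, at −0.51 and −0.61 in limma with pseudocounts of 1 and 0.1 (limma adjusted p = 0.0152 and 0.0141) and −0.62 in the study's test (not called, adjusted p = 0.0855).

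Lig4 (ENSMUSG00000049717, chr8:9969049-9977686, minus strand), which encodes DNA ligase IV, was at 14.1, 12.9, 10.6 and 11.1 CPM in WT and 9.497, 7.01, 8.65 and 11.8 CPM in Ncf1-/- cultures. Culture 4 of the Ncf1-/- group lay among the WT values. The fitted difference was −0.39 ± 0.15 on the log2 scale (SE, edgeR adjusted p = 0.0407), the weakest call of the 7. It was lost in 12 of 20 alternatives, with log2 fold changes from −0.40 to −0.21, and that of Xrcc4 was lost in 8 of 20, from −0.37 to −0.14. The smallest change of either gene was that with library totals, and without it the lost calls ran from −0.40 to −0.22 for Lig4 and from −0.37 to −0.28 for Xrcc4. Under Igfbp2, Lig4 stood at 8.08, 9.02, 9.95 and 8.05 CPM, all below WT (log2 fold change −0.47, edgeR adjusted p = 0.017) and not called against vehicle (log2 fold change −0.08, 95% interval −0.41 to 0.26, edgeR adjusted p = 0.741).

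Nhej1 (ENSMUSG00000026162, chr1:74967139-75125200, minus strand) encodes XLF, which bridges the ends together with XRCC4. It was the lowest of the 8 genes in CPM, at 1.18, 1.73, 2.12 and 1.61 in WT and 2.66, 2.95, 2.60 and 2.43 in Ncf1-/- cultures. These values rest on 26 to 74 counts in WT and 59 to 65 counts in Ncf1-/- libraries. The groups did not overlap (log2 fold change 0.66, SE 0.19, edgeR adjusted p = 0.00927). With Igfbp2 it was at 1.99, 1.56, 1.63 and 1.47 CPM (26 to 36 counts), below every vehicle-treated culture (log2 fold change −0.67, SE 0.19, edgeR adjusted p = 0.0242). Against WT the log2 fold change was −0.01 (95% interval −0.44 to 0.42, edgeR adjusted p = 0.963). With a restored gene defined by a call between genotypes and between treatments without one between treated cells and WT, Nhej1 was the 1 gene of the 8 that qualified, as did 5.30% of all genes tested. Without the condition on the treatments, Xrcc4 and Nhej1 qualified, as did 11.2% of all genes. The term restored names a pattern of calls only, since Igfbp2 and sex-linked expression cannot be told apart here either. The call between the treatments did not hold without the filter on low counts (edgeR adjusted p = 0.053) or without Ncf1-/- culture 1, Ncf1-/- culture 2 or Igfbp2-treated culture 8, where adjusted p ran from 0.055 to 0.0735. The log2 fold changes there were −0.67 without the filter and −0.67, −0.62 and −0.65 without these cultures.

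Trp53bp1 (ENSMUSG00000043909, chr2:121193281-121271407, minus strand) encodes 53BP1, a chromatin reader that shields ends from resection and so favours NHEJ. It was the highest of the 8 genes in CPM. It was at 94.8, 109, 99.2 and 98.3 CPM in WT and 66.4, 69.2, 62.0 and 76.8 CPM in Ncf1-/- cultures, with a wide gap between the groups (log2 fold change −0.55, SE 0.09, edgeR adjusted p = 0.00016). Igfbp2-treated cultures were at 68.2, 74.5, 84.9 and 74.8 CPM, overlapping vehicle (log2 fold change 0.14, 95% interval −0.05 to 0.33, edgeR adjusted p = 0.26) and below all WT values (log2 fold change −0.41, SE 0.09, edgeR adjusted p = 0.0014). The lower level against WT was called in 19 of 20 alternatives for vehicle-treated and in 20 of 20 for Igfbp2-treated cells.

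Between the treatments, 2 of the 8 genes were called (Dclre1c and Nhej1), both lower after Igfbp2, where 25.0% of all genes tested were called and 10.7% called lower. Igfbp2-treated cells differed from WT in 6 of the 8, with 2 called higher and 4 lower, where 62.4% of all genes were called (31.6% higher and 30.8% lower). On TPM the split was 0 higher and 5 lower in both limma fits and 0 higher and 3 lower in the study's test. Of all genes, 8859 and 9047 were called in limma with pseudocounts of 1 and 0.1 and 5592 in the study's test, against 9801 in edgeR. Relative to the lower median over all genes in limma on TPM, Xrcc6 and Xrcc5 stayed above 0 and Xrcc4 was at −0.26 and −0.20 with pseudocounts of 1 and 0.1. The 3 comparisons share their libraries pairwise. The 4 cultures of either group did not overlap for 6 of the 8 genes between Ncf1-/- and WT (51.2% of all genes), for 3 of the 8 between the treatments (34.1%) and for 6 of the 8 between Igfbp2-treated cells and WT (54.3%). Without WT culture 11, which stood apart in its markers, and separately without WT culture 12, which had low Y-linked expression, each of the 7 calls between Ncf1-/- and WT remained.

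**Figure D2:**
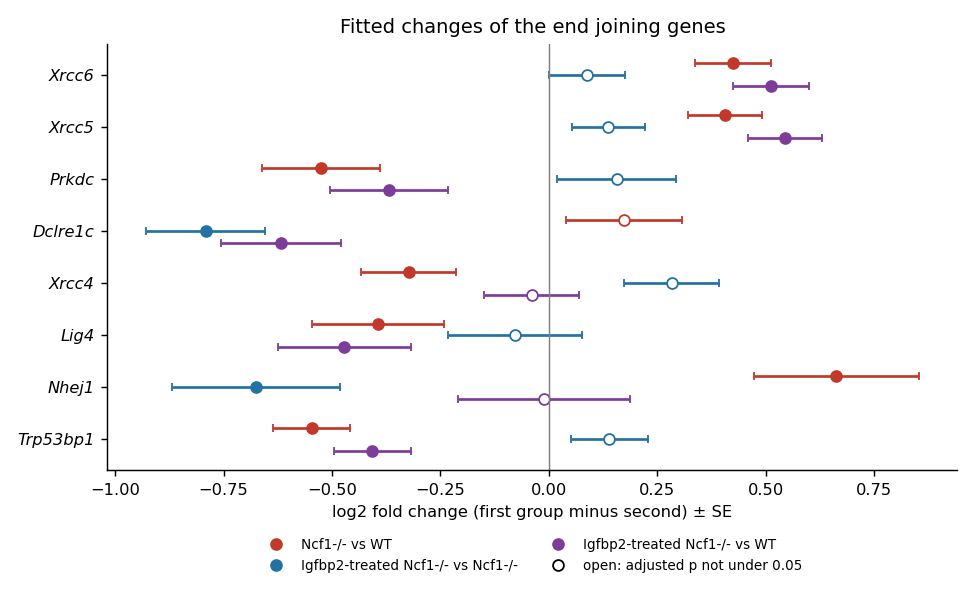
Fitted log2 fold change (horizontal axis) of each gene in the 3 comparisons, with its standard error as a bar. Filled points were called at an adjusted p under 0.05 and open points were not. Xrcc6 and Xrcc5 were at 0.43 and 0.41 in Ncf1-/- against WT, and Dclre1c and Nhej1 were at −0.79 and −0.67 between the treatments.

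Of the 6 genes not called between the treatments, 5 changed direction with the scaling, while Lig4 stayed below 0 under each. Over all genes, the median log2 fold change between the treatments was 0.04 with TMM factors, −0.235 with library totals and −0.30 to −0.42 in limma on TPM. Relative to that median, the 8 genes kept their direction with library totals. In limma on log2(TPM + 1), Xrcc6, Xrcc5 and Trp53bp1 did not, and in limma on log2(TPM + 0.1) Xrcc6 did not. Dclre1c and Nhej1 lay below the median under each of these scalings, Dclre1c by 0.83 with TMM factors and by 0.42 to 0.57 in limma on TPM.

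**Figure D3:**
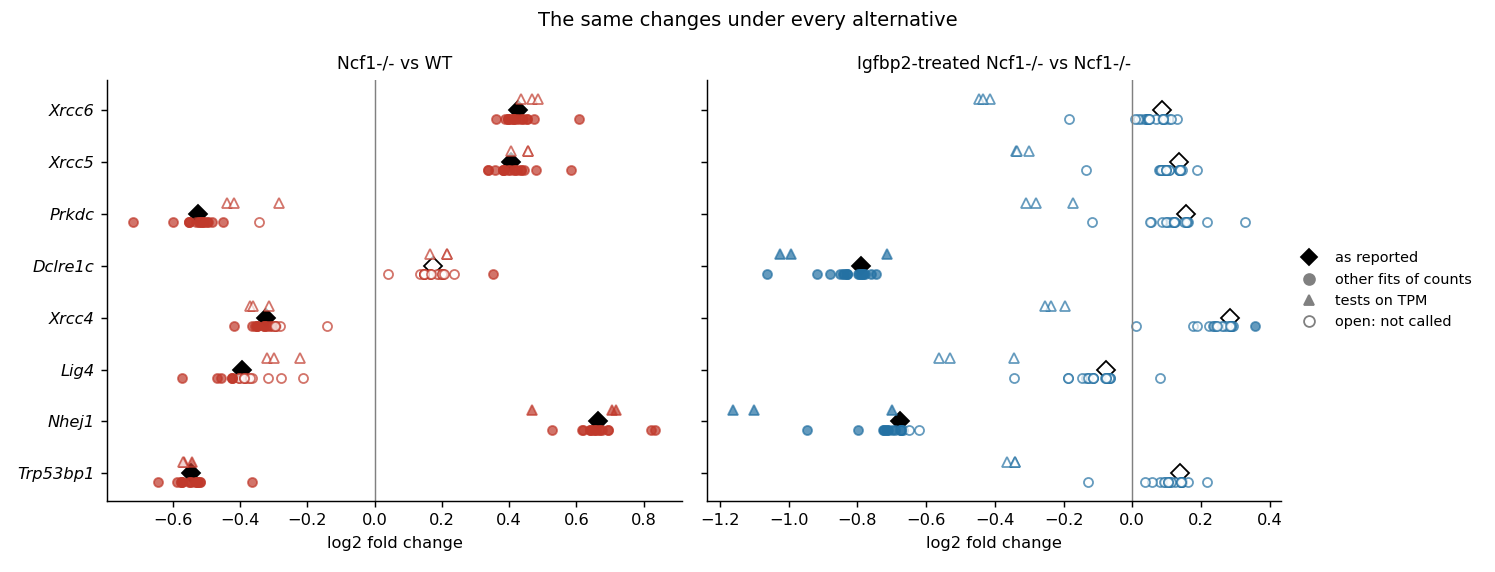
Log2 fold change (horizontal axis) of each gene as reported (diamonds) and under each alternative, for other fits of counts (circles) and tests on TPM (triangles). Filled symbols were called and open ones were not. Between the treatments, Xrcc6, Xrcc5, Prkdc, Xrcc4 and Trp53bp1 fell on the other side of 0 in the tests on TPM, and Dclre1c was called under each alternative.

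On the scale of TPM, which corrects for the transcript length that RSEM assigned, the order of the genes was similar in the groups. Comparisons between genes depend on that length, which was 2949 to 3590 bases for Trp53bp1. The exons of Trp53bp1 also share 2130 bases with Tubgcp4 on the other strand, so its rank is uncertain. Trp53bp1 led with 24.6 ± 3.49 TPM (SD, n = 4) in WT, 16.6 ± 2.42 in Ncf1-/- and 13.1 ± 3.54 in Igfbp2-treated cells. Xrcc6 followed with 10.2 ± 0.976, 14.2 ± 2.699 and 10.5 ± 2.61 TPM, and its cultures overlapped those of Trp53bp1 in both Ncf1-/- groups but not in WT. Xrcc5 came next with 6.30 ± 1.24, 8.63 ± 1.33 and 6.84 ± 1.25 TPM. Xrcc4 came after it in each group, and in WT its cultures overlapped those of Xrcc5. Dclre1c, Lig4, Prkdc and Nhej1 had means of 1.01 to 3.23 TPM over the 3 groups. In Igfbp2-treated cells, each of these overlapped its neighbour in the order. Prkdc, which ranked high in CPM, was seventh of the 8 genes by TPM in WT and eighth in Ncf1-/- cells, its transcript being 11650 to 12650 bases long.

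The abundance-weighted transcript length that RSEM assigned to a gene, which moves when the mix of its isoforms moves, was constant for Xrcc5 and Nhej1 and varied for the other 6 genes. GENCODE M21 lists 1 transcript for Xrcc5, and with 1 transcript the length cannot vary. Dclre1c was at 2811 ± 212 bases (SD, n = 4) in WT, 2839 ± 302 in Ncf1-/- and 2443 ± 251 in Igfbp2-treated cultures. The exact permutation test of the 4 Igfbp2-treated against the 4 vehicle-treated cultures gave p = 0.114, and against WT p = 0.0571 (0.514 for both after adjustment over the 18 tests). No test of the 18 passed an unadjusted p under 0.05.

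Some of these genes start close to a neighbour on the other strand. The start of Prkdc lies 466 bp from that of Mcm4, a subunit of the replicative helicase, on the opposite strand. Mcm4 was at 34.9 ± 4.39 CPM in the 4 WT cultures (mean ± SD) and 95.2 ± 17.8 CPM in Ncf1-/- cultures, a difference of 1.45 ± 0.15 on the log2 scale (SE, edgeR adjusted p = 4.17e-06), so both genes of this divergent pair were called in opposite directions. Lig4 starts 21 bp from Abhd13, which was at 33.0 ± 4.32 CPM in WT and 39.9 ± 2.03 CPM in Ncf1-/- cultures (log2 fold change 0.27, edgeR adjusted p = 0.0165), again opposite to Lig4. Xrcc4 starts 485 bp from Tmem167, which was not called between Ncf1-/- and WT (log2 fold change −0.09, edgeR adjusted p = 0.513) and was lower than WT after Igfbp2 (log2 fold change −0.35, edgeR adjusted p = 0.016).

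Exons of 4 of the genes overlap those of a gene on the other strand in GENCODE M21, namely Xrcc6 with Desi1 (344 bases), Dclre1c with Suv39h2 (357), Xrcc4 with Tmem167 (112) and Trp53bp1 with Tubgcp4 (2130). Whether the counting used strand was not given in the sources used here, so reads in these stretches may belong to either gene. Suv39h2, a histone methyltransferase gene, was at 12.6 ± 1.64 CPM in Ncf1-/- and 12.2 ± 1.86 CPM in Igfbp2-treated cultures (SD, n = 4, log2 fold change −0.05, edgeR adjusted p = 0.84), while Dclre1c fell. Against WT, Suv39h2 was higher in Ncf1-/- cultures (1.05, edgeR adjusted p = 7.87e-05). Tubgcp4 was not called between Ncf1-/- and WT (log2 fold change 0.11, edgeR adjusted p = 0.37) and was lower after Igfbp2 than with vehicle (−0.32, edgeR adjusted p = 0.04). Desi1 moved opposite to Xrcc6, with a log2 fold change of −0.56 between Ncf1-/- and WT (edgeR adjusted p = 0.000441), and was higher after Igfbp2 than with vehicle (0.46, edgeR adjusted p = 0.00798).

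Other genes of break repair were examined as lists. Of 11 tested genes of end processing and other NHEJ factors, 2 rose, 2 fell and 7 were not called between Ncf1-/- and WT (median log2 fold change 0.16), where 57.2% of all genes were called. With library totals, 6 rose and 1 fell, where 9183 of all genes were called, against 8978 with TMM factors, and the median over all genes was 0.19. The largest rise was that of Tdp2, which removes topoisomerase II adducts from DNA ends, from 11.3 to 21.8 CPM (log2 fold change 0.96, edgeR adjusted p = 3.17e-06), followed by Polm, a polymerase that fills ends (0.47, edgeR adjusted p = 0.0397). Wrn, a helicase and exonuclease, and Aptx, which repairs stalled ligation products, fell (−0.47 and −0.26, edgeR adjusted p = 0.000264 and 0.0163). Between the treatments, none of the 11 was called by edgeR's quasi-likelihood test, with 0 at an unadjusted p under 0.05 and 0 by DESeq2, while 2 were called lower with library totals. Library totals gave 5906 calls over all genes there, against 3923 with TMM factors, and a median log2 fold change of −0.235 over all genes.

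Of 13 factors that act with 53BP1, 5 rose and 4 fell between Ncf1-/- and WT (median log2 fold change 0.04), where 57.2% of all genes were called. H2ax, the histone variant phosphorylated at breaks, rose from 109 to 335 CPM (log2 fold change 1.62, edgeR adjusted p = 1.95e-06). Mdc1, which binds it, and Rnf168, the ubiquitin ligase that marks chromatin for 53BP1, rose too (0.86 and 0.51, edgeR adjusted p = 0.000637 and 0.000146). The falls were led by Herc2 (−1.41), a ubiquitin ligase, Dynll1 (−0.89), a dynein light chain that binds 53BP1, and Nudt16l1 (−0.52), which masks the reader domain of 53BP1 (edgeR adjusted p = 2.93e-05, 0.00023 and 0.000598). After Igfbp2, Paxip1, which binds 53BP1 and ties it to Artemis, fell from 45.3 to 34.5 CPM (−0.39, edgeR adjusted p = 0.0127). It was the 1 gene of the 13 called between the treatments, where 25.0% of all genes were, and 6 were lower with library totals. The genes called in all numbered 5906 with library totals, against 3923 with TMM factors, and the median log2 fold change over all genes was −0.235 with library totals.

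Of the 4 genes of break sensing, Nbn, Rad50 and Mre11a, which form the MRN complex, rose together in Ncf1-/- NSCs (log2 fold changes 0.69, 0.43 and 0.38, edgeR adjusted p = 0.000108, 0.00434 and 0.0113). Against WT, 57.2% of all genes were called and 28.9% were called higher. Between the treatments none of the 4 was called by edgeR's quasi-likelihood test (0 at an unadjusted p under 0.05, 0 by DESeq2, 1 lower with library totals), where 25.0% of all genes were. Of the 6 genes of alternative end joining, 4 rose and 2 fell between Ncf1-/- and WT, where 28.9% of all genes were called higher and 28.2% lower. Lig1, the replicative ligase, and Polq, the polymerase of microhomology-mediated joining, rose most (1.63 and 1.30, edgeR adjusted p = 8.19e-06 and 0.000463), with Parp2 (0.81, edgeR adjusted p = 1.63e-05), while Parp1 and Lig3 fell (−0.77 and −0.41, edgeR adjusted p = 0.00027 and 0.000293). Polq was the 1 gene of the 6 called between the treatments, with 14.7 ± 2.20 CPM (SD, n = 4) with vehicle and 9.01 ± 2.703 CPM after Igfbp2 (−0.70, edgeR adjusted p = 0.0449), although the cultures overlapped. With library totals, 3 of the 6 were lower. That scaling called 5906 of all genes between the treatments, against 3923 with TMM factors, and the median log2 fold change over all genes was −0.235.

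The recombination genes moved mostly one way. Of 19 genes of end resection and recombination, 17 rose and none fell between Ncf1-/- and WT by edgeR, and the same counts were given by DESeq2 (0 lower at an unadjusted p under 0.05, median log2 fold change 1.27, beside −0.07 for the 8 NHEJ genes and 0.02 for all genes). Of all genes, 28.9% were called higher there. Dna2, a resection nuclease, rose from 4.25 to 16.3 CPM (log2 fold change 1.95, edgeR adjusted p = 4.46e-06). Between the treatments 1 of the 19 was called, Rad52, which fell from 7.70 to 5.57 CPM (−0.47, edgeR adjusted p = 0.0109), against 9 of the 19 lower with library totals. Of all genes, 25.0% (3923) were called between the treatments. With library totals this number was 5906, and the median log2 fold change over all genes was −0.235. All 12 genes of proliferation rose as well, with a median log2 fold change of 2.19, led by Ccnb2, Ccna2 and Cdk1 (2.53, 2.43 and 2.42, edgeR adjusted p = 8.45e-08, 1.76e-06 and 2.07e-07), and none of the 12 was called between the treatments by edgeR's quasi-likelihood test (1 at an unadjusted p under 0.05, 0 by DESeq2, 4 lower with library totals). Their summed level was 387 to 700.4 CPM in WT, 1759 to 2234 CPM in Ncf1-/- and 1620 to 1979 CPM in Igfbp2-treated libraries. The part of this difference in the results for NHEJ genes was not tested.

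**Figure D4:**
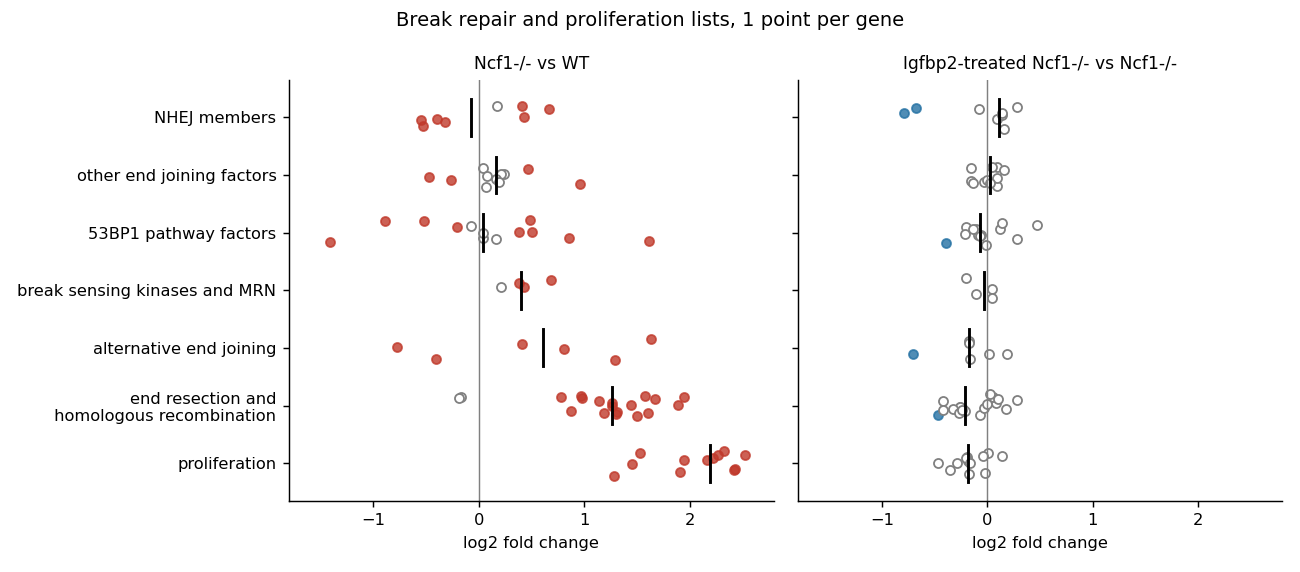
Log2 fold change (horizontal axes) of each tested gene of the NHEJ genes and 6 further lists, between Ncf1-/- and WT (left) and between the treatments (right). Filled points were called, open ones were not, and black bars are list medians. The medians between Ncf1-/- and WT were −0.07 for the NHEJ genes, 1.27 for resection and recombination and 2.19 for proliferation.

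Over the 12 libraries, the genes with the most similar log2 CPM, among those with a mean of at least 5 CPM, were Tubb2a and Pold2 for Xrcc6 (Pearson's r = 0.979 and 0.978), Got2 and Slc25a15 for Xrcc5 (0.987 and 0.978), Trip11 and Trim33 for Prkdc (0.971 and 0.966), and Polr3a and Zc3h4 for Trp53bp1 (0.988 and 0.985). For Dclre1c they were Slitrk1 and Gm14391 (0.966 and 0.965), for Xrcc4 Tmem135 and Kdm6a (0.904 and 0.890), for Lig4 Rnf8 and Dcun1d2 (0.956 and 0.935), and for Nhej1 Sec14l2 and Cnot11 (0.936 and 0.923). Such values are common where groups differ: 908 genes reached an r of at least 0.9 with Xrcc5 and 721 with Trp53bp1, against 1 with Xrcc4 and 6 with Lig4. The points share the 3 groups and their libraries, and the correlations are given as a description.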

How the data were processed

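Primary NSCs of 12 cultures were sequenced after ribosomal depletion. Per the labels and the study's methods, reads were aligned to GRCm38 with Bowtie2 and quantified with RSEM (versions and annotation release not given in the sources used here). The authors deposited, for each library, RSEM's estimated counts (the expected count per gene), TPM and transcript lengths per gene, and a merged table, deposited as TPM, whose score equals TPM times the number of listed transcripts in 100% of 257083 values above 0 (tolerance 0.011), so it served only to match symbols to identifiers. Each column was matched to its sample, and 0 columns were left over.

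Expected counts, of which 15.9% were not whole, were rounded. With edgeR 4.0.16 (R 4.3.3), genes were filtered with filterByExpr (15706 kept), scaled by TMM factors (0.892 to 1.14) and fitted by quasi-likelihood in 1 model of the 3 groups and 12 libraries. Tests were two-sided, with Benjamini-Hochberg adjustment over all genes tested and a threshold of 0.05. CPM are TMM-scaled, 95% intervals use the fitted SE, and the median SE of a log2 fold change was 0.141. On counts simulated with the same dispersion for every gene, edgeR recovered 180 of 200 genes changed by a log2 fold of 1, with 12 wrong calls among the 15706 genes. In the real data 57.2% of genes were called between Ncf1-/- and WT, so these rates need not hold there. Replicates of a group differed beyond sampling noise (chi-square per degree of freedom of 4.63 or more).

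Alternatives were DESeq2 1.42.0, library totals, testing without a filter or with a minimum mean of 5 CPM, fitting each pair of groups alone, limma 3.58.1 on log2(TPM + 1) and log2(TPM + 0.1), the study's ANOVA and Tukey tests on TPM, a replicate block, and leaving out each library. The study pairs vehicle and Igfbp2 cultures by pup. Deviations of the 4 pairs from their group means correlated from −0.0673 to 0.0328 (−0.248 to 0.257 for the 12 other combinations), and their Y-linked expression differed.

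Other break repair lists (12 further NHEJ factors, 14 factors of the 53BP1 pathway, 4 of break sensing, 6 of alternative end joining, 19 of resection and recombination), proliferation and cell type markers were looked up by symbol. Named from each list were up to 3 called genes with the largest rise and fall in each of the comparisons with the Ncf1-/- group, together with divergent neighbours starting within 1000 bp and the most similar genes. Some genes that this rule names in the resection and recombination list are not reported here. The members and lists were chosen with earlier results of these data known. Coordinates are from GENCODE M21, and promoter sequences from RefSeq, both on GRCm38.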

Additional observations from a re-analysis of the deposited data

Results flagged for a closer look

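The summed CPM of the Y-linked genes in WT culture 12 (6.46 CPM) lay far from the other 3 WT cultures (107 to 118 CPM), at a gap of 0.898 of the range of the group, above the 95% critical value of Dixon's test for 4 samples. No value of the 8 NHEJ genes and no Xrcc5 to Xrcc6 ratio exceeded it, among 30 groups of values examined, of which chance alone would give about 1 in 20.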

How the results depend on the processing

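Calls were unchanged in 7 of 20 alternatives for Ncf1-/- against WT, 15 of 21 between the treatments and 14 of 20 for Igfbp2-treated cells against WT. The alternatives counted here and above include leaving out each library of the group outside the comparison. Such a library enters only through the filter, scaling and fitted spread of the joint model. Between Ncf1-/- and WT, limma on log2(TPM + 1) and on log2(TPM + 0.1) called 2 members each and the study's test on TPM called 1, against 7. In the same order, these tests called 6659, 6541 and 4328 of all genes, against 8978. With the study's test, 3 were called between Igfbp2-treated cells and WT, against 6 (5592 of all genes, against 9801). Between the treatments, 1 member was called without the filter and 1 with a mean of at least 5 CPM, which leaves Nhej1 out, and the number restored was then 0 in both. Leaving out a library gave 5 to 7, 1 to 3 and 4 to 6 calls in the 3 comparisons and 0 to 2 restored genes, 2 (Xrcc4 and Nhej1) without Ncf1-/- culture 4. The replicate block, built on the pairs that the study describes, changed no call, with 2 members called between the treatments. The Y-linked genes summed to 105 to 116 CPM in the vehicle-treated and 7.80 to 9.18 CPM in the Igfbp2-treated libraries of these pairs. The block therefore cannot serve as a check by animal. No paired analysis was possible for the comparisons with WT because the animals differed.

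Signs of fold changes that turned were those of members not called. Between the treatments, with library totals the log2 fold changes were −0.18 for Xrcc6, −0.14 for Xrcc5, −0.12 for Prkdc and −0.13 for Trp53bp1. In limma on log2(TPM + 1), log2(TPM + 0.1) and the study's test, in that order, they were −0.41, −0.45 and −0.43 for Xrcc6, −0.30, −0.34 and −0.34 for Xrcc5, −0.17, −0.28 and −0.31 for Prkdc, −0.20, −0.24 and −0.25 for Xrcc4, and −0.34, −0.36 and −0.34 for Trp53bp1. Leaving out a library, Lig4 ran from −0.188 to 0.081, the latter without Ncf1-/- culture 4. Against WT, Nhej1 after Igfbp2 was at 0.01 without the filter and ran from −0.155 to 0.15 when a library was left out, above 0 without Igfbp2-treated culture 8 and without WT culture 11. The difference in the log2 Xrcc5 to Xrcc6 ratio ran from −0.068 to 0.113 when a library was left out between Ncf1-/- and WT, and was above 0 without Ncf1-/- culture 4 and without WT culture 11. Of the 18 differences in weighted transcript length, 7 crossed 0 when a library was left out, among them that of Lig4 between Igfbp2-treated cells and WT (−96.7 to 41.2 bases). The cause of these changes was not tested. Nhej1 rests on 26 to 74 counts per library, the fewest of the members.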
